A study of Mus musculus with 4 samples.

Results

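Accessible chromatin was described at 8 genes of the cartilage programme, comprising the regulators Sox9, Sox5 and Sox6 and the cartilage genes Acan, Matn1, Comp, Ihh and Snorc. Peaks of 4 ATAC-seq libraries were merged where they shared at least 1 bp. A merged interval, called a region here, was given to a gene when that gene was the nearest protein-coding gene to its midpoint within 100 kb, or within 1 Mb for Sox9. By this rule 41 of the 39843 regions belonged to the 8 genes, 37 to the 3 regulators and 4 to the 5 cartilage genes.

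ATAC-seq maps open DNA by letting a transposase insert adapters into it. Green fluorescent mesenchymal cells were sorted from mouse palate at E14.5, with 50000 cells pooled per group, to ask what loss of the homeobox gene Shox2 does to accessibility in its own lineage. The control genotype was Shox2Cre/+;Nkx2.5F/F;R26RmTmG and the mutant genotype Shox2Cre/-;Nkx2.5F/F;R26RmTmG, with 2 libraries each. Cre was expressed from the Shox2 locus, so cells were marked by past or present Shox2 activity. Controls therefore carried 1 intact Shox2 allele and were not wild type. Both genotypes also carried 2 floxed Nkx2-5 alleles, which Cre can delete, and the R26RmTmG reporter, which turns green after Cre acts. Whether the libraries of a genotype came from separate pools is not stated, so the spread between them may be technical.

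Sox9 is the transcription factor that commits mesenchyme to cartilage and directly switches on cartilage matrix genes. Sox5 and Sox6 lack a transactivation domain of their own and act with Sox9 at many of the same enhancers. In the embryonic palate, mesenchyme derived from the neural crest expresses Sox9 without forming much cartilage, loss of SOX9 function can cause cleft palate in humans, and distant noncoding DNA around the gene has been tied to cleft syndromes. Aggrecan (Acan), matrilin 1 (Matn1) and cartilage oligomeric matrix protein (Comp) are secreted matrix proteins. Snorc encodes a small membrane proteoglycan of chondrocytes, and Ihh the hedgehog ligand of growth plate cartilage.

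The lists held 30225 and 22959 peaks in controls and 29217 and 31821 in mutants, so control 2 had the shortest list. Read depth is unknown, and a peak that is not listed is not shown to be closed chromatin. All 10 palate mesenchyme marker genes had a region. A region within 1 kb of a gene end in all 4 libraries was found at 5 of them (Osr2, Msx1, Twist1, Pdgfrb and Meox2), against 44.8% of all protein-coding genes. The same count was 4 of 10 for epithelial, 4 of 6 for neuron, 3 of 7 for Schwann and glial, 1 of 5 for endothelial, 1 of 4 for blood, 0 of 6 for skeletal muscle 0 of 5 for bone and 2 of 4 for cartilage markers. These counts do not set mesenchyme apart, so the lists do not check the labelled cell type.

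The regulators and the cartilage genes had very different numbers of regions. Sox6 had 16, Sox5 had 13, Sox9 had 8, Acan had 3 and Comp had 1, while Matn1, Ihh and Snorc had 0. The count at Sox9 rests on its 1 Mb limit. Within 100 kb, the limit of the other genes, Sox9 had 3 regions, as many as Acan. Of all protein-coding genes, 30.8% had no region. The 2 genes with the most regions were also the longest. Sox5 spans 954 kb, Sox6 spans 570 kb, and the other 6 genes run from 5.28 to 61.9 kb. Per 100 kb of the sequence nearest to each gene, regions numbered 1.05 at Sox9, 1.13 at Sox5, 2.32 at Sox6, 2.32 at Acan and 5.34 at Comp, and the median over all genes was 1.86. The Comp value rests on 1 region in 18.7 kb. The Sox9 value covers 762 kb under its wider limit, while the sequence of other genes ended at most 100 kb from the gene. It is thus not directly comparable with the rest.

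Member regions were listed less widely across libraries than most regions. Of the 41 regions, 10 (24.4%) held a peak in all 4 libraries, against 50.4% of the 34800 regions assigned to any protein-coding gene. The 41 include Sox9 regions beyond 100 kb, while regions of every other gene stop at 100 kb. Of the 8 Sox9 regions, 3 lay within 100 kb and none was in all libraries. The wider limit thus lowers the member shares here, including that away from gene ends. A further 10 held a peak in 3 libraries, 8 in 2 and 13 in 1, and 22.3% of all assigned regions were in 1 library. Only 4 of the 41 (9.76%) lay within 1 kb of a gene end, against 32.6% of all assigned regions. They belonged to Sox9, Sox5, Sox6 and Acan, so 4 of the 8 genes had a gene-end region in some library, against 52.2% of all genes. Away from gene ends, 9 of 37 member regions (24.3%) and 34.1% of all regions were in every library. Control 1 held 28 of the 41 regions, control 2 held 14, mutant 1 held 30 and mutant 2 held 27. In 7 of the 10 regions found in 3 libraries, the list without a peak was that of control 2, against 60.2% of the 4615 assigned regions found in 3 libraries. There were 65 cases of a library without a peak in a member region. In all 65, at least 1 peak number was missing between the flanking listed peaks (median 9, range 1 to 34). These gaps were 12.4 to 829 kb long. No share over all assigned regions is at hand, so the count does not set the member regions apart. Without control 2, 41.5% of the member regions and 59.2% of all assigned regions were in all 3 libraries left.

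**Figure D1:**
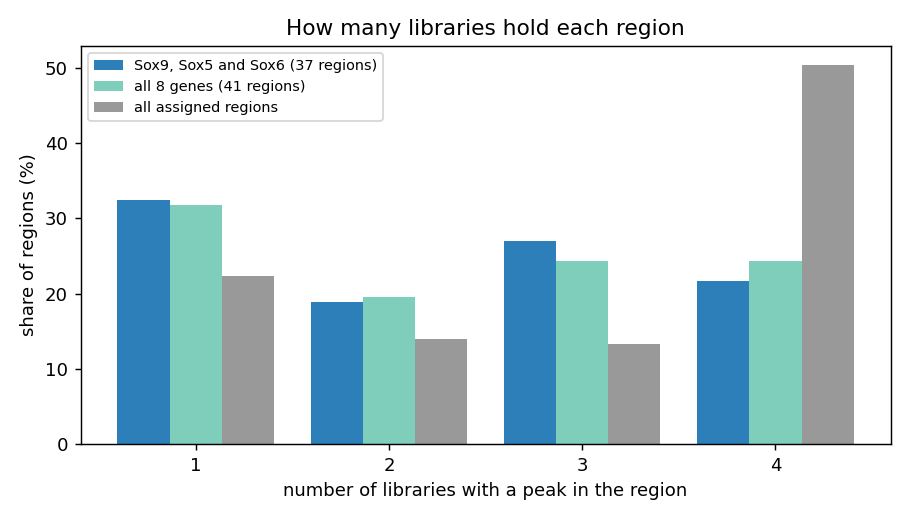
Share of regions (%) by the number of libraries, from 1 to 4, that hold a peak in them. Bars give the 37 regions of Sox9, Sox5 and Sox6, the 41 regions of all 8 genes, and the 34800 regions assigned to any protein-coding gene. The all-library share is 24.4% for the 8 genes and 50.4% for all assigned regions.

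Sox9 (mm10, chromosome 11, 112782210 to 112787757) had no region that every library held. The gene lies in a long stretch without protein-coding genes, with Gm11677 1056 kb away on the lower-coordinate side and Slc39a11 457 kb away on the other. The percentile used here is the rank of a peak by its deposited score among the peaks of its own library, with 100 the highest. The region over its lower-coordinate end (112781557 to 112783635, 2079 bp) was at percentile 42.1 in control 1, 33.8 in mutant 1 and 54.7 in mutant 2, and was not listed in control 2. These gene-end peaks were of middling rank in the 3 libraries. The authors' fold enrichment there was 4.62 in control 1, 4.08 in mutant 1 and 5.07 in mutant 2. In control 2 no peak was listed over 829 kb around the gene, and 34 peak numbers were missing in that interval. Without control 2, 2 regions of Sox9 (the gene end and the one at 478 kb) were in all libraries left.

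The other regions of Sox9 were thinly shared. The highest in rank lay 411 kb away on the lower-coordinate side (112370523 to 112372069), at percentile 60.7 in control 1, 38.0 in control 2 and 50.5 in mutant 1, and was not listed in mutant 2. Both controls and 1 mutant library thus held it. A region 478 kb away (112304012 to 112304746) was at 9.86 in control 1, 33.8 in mutant 1 and 8.61 in mutant 2. A region 19.7 kb away (112762160 to 112762941), was the Sox9 region that both mutants and neither control held, at percentiles 19.9 in mutant 1 and 10.7 in mutant 2. The remaining 4 regions, at 518, 454, 332 and 82.6 kb, each came from 1 library.

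Between the region at 332 kb and the one at 19.7 kb no library listed a peak nearest to Sox9. Within 1 Mb of the gene there were 24 regions, and 16 of them were nearer to other genes. All 7 regions of this window held by every library were among those 16. The closest of them to Sox9 lay 414 kb away on the higher-coordinate side (113200998 to 113202150). It was outside its nearest gene Slc39a11, whose near end is 457 kb from Sox9. Its percentiles were 63.6 and 20.2 in controls, with 58.2 and 67.9 in mutants. When noncoding genes were allowed to take regions, Sox9 had 2 in place of 8, because 5 were nearer to the lncRNA genes Gm39461 and BC006965 and 1 lay inside the lncRNA gene Gm46301. The count at Sox9 is thus one of assignment as well as of accessibility.

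**Figure D2:**
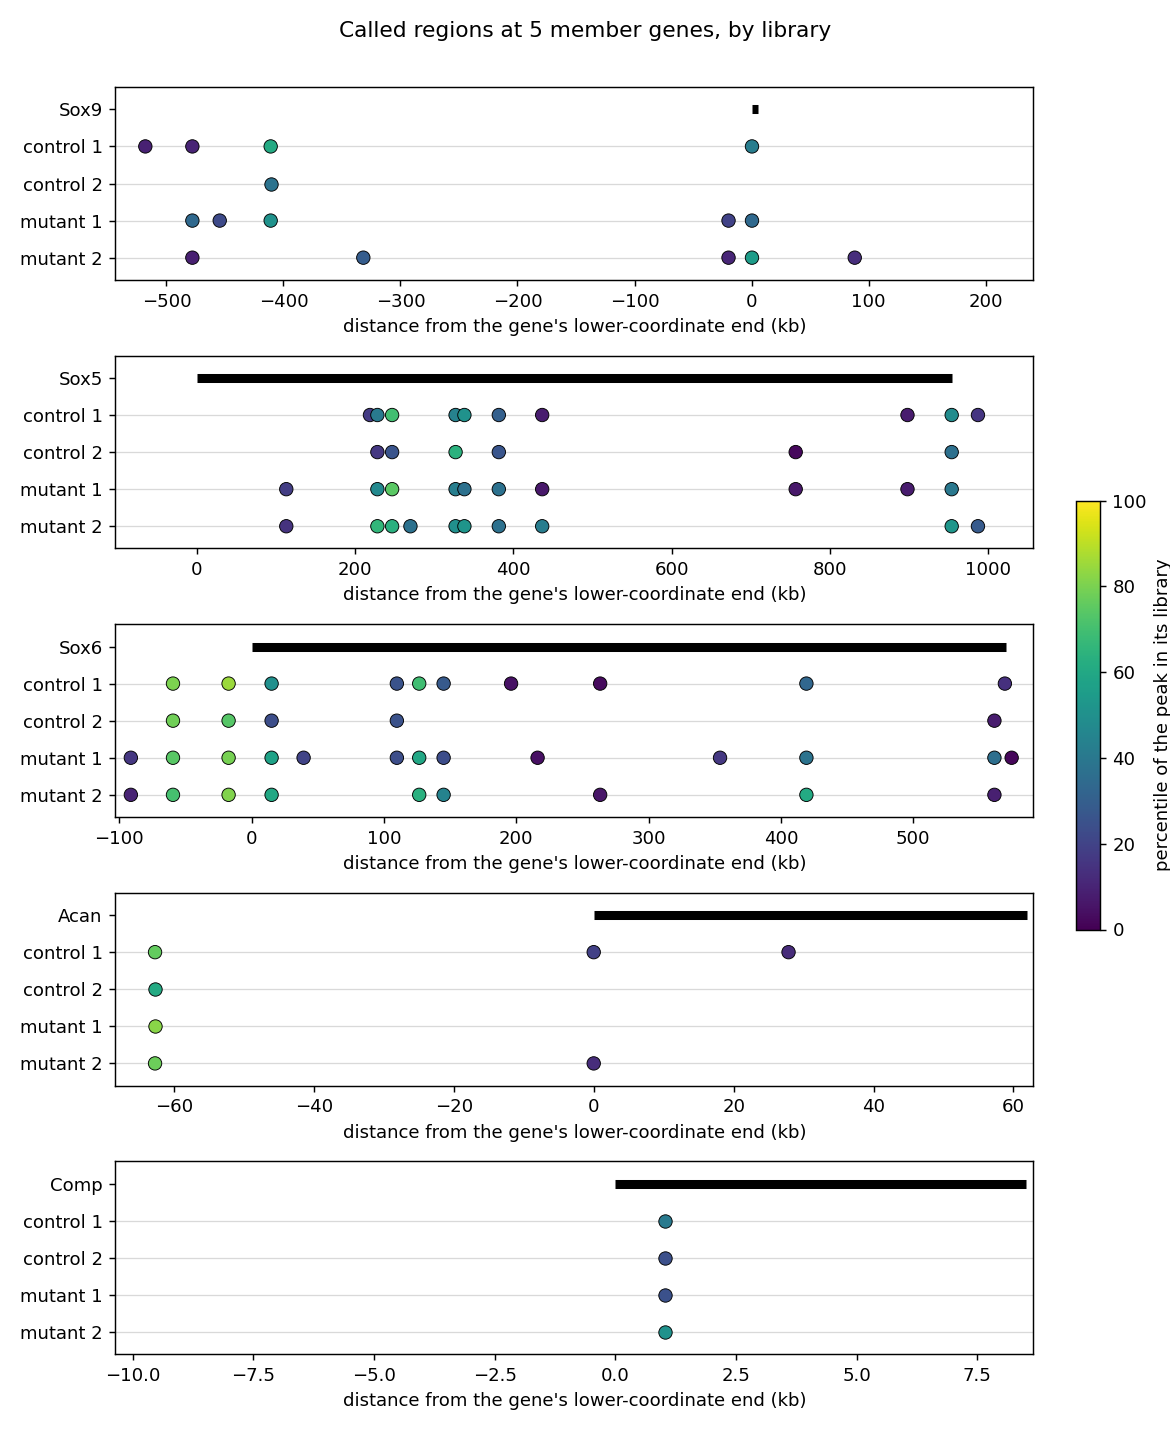
Regions with a peak in each library at Sox9, Sox5, Sox6, Acan and Comp. The x axis is the distance in kb from the end of the gene with the lower coordinate, the black bar is the gene, each row is 1 library, and colour is the percentile of the peak in its library from 0 to 100. At Sox9 no column of dots has all 4 libraries, while Sox5 has 5 such columns and Sox6 has 3.

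Sox5 (chromosome 6, 143828425 to 144782287) had the most regions shared by all libraries, 5 of 13. The gene runs on the minus strand, and 4 of the 5 lay inside it, between 228 and 382 kb from the nearer gene end. The intragenic region at 144074539 to 144075857 was at percentile 69.6 in control 1 and 26.1 in control 2, with 74.4 in mutant 1 and 63.4 in mutant 2. It was high in 3 libraries and low in control 2. Its neighbour at 144154893 to 144155833 showed the reverse, at 44.3 in control 1 and 63.7 in control 2, with 42.3 in mutant 1 and 49.9 in mutant 2. The controls differed from each other at both sites by more than the mutants did.

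The intragenic region at 144056042 to 144057182 was at 40.8 and 16.4 in controls, with 47.0 and 65.9 in mutants. The fourth, at 144208936 to 144211013, was at 30.3 and 26.5 in controls, with 37.4 and 37.0 in mutants. Both mutants ranked above both controls at these 2 regions, as they did at 28.4% of all shared regions. With ranks taken only among regions that all libraries hold, 17.0% of all did so. The region at 144208936 to 144211013 then overlapped, at 6.85 and 15.2 in controls, with 13.0 and 9.42 in mutants. The region over the 5′ end of the gene (144781116 to 144782806) was at 48.2 and 36.6 in controls, with 40.1 and 52.3 in mutants, and the genotypes overlapped. Of the 8 genes, Sox5 alone had a gene-end region in all 4 libraries, against 44.8% of all protein-coding genes. Of 9687 other protein-coding genes with such a region, those with the most similar 4 percentiles were Vwce, Sgsh and Gnptg, at Euclidean distances of 2.60, 2.89 and 4.46 over 4 libraries.

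Of the other 8 regions of Sox5, 2 were in 3 libraries, 4 in 2 and 2 in 1. The pair in 3 libraries lay inside the gene and were both missing from control 2. The first (144166090 to 144166924) was at 50.9 in control 1, 36.8 in mutant 1 and 52.1 in mutant 2. The second (144264224 to 144265256) was at 8.02, 6.59 and 41.8 in the same libraries. A region 113 kb inside the 3′ end (143941254 to 143941830) was listed in both mutants and in neither control, at percentiles 18.0 and 14.6. It lay 5227 bp from a promoter window of Sox5 in the RefSeq table. The remaining regions did not follow genotype.

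Sox6 (chromosome 7, 115470872 to 116040776, minus strand) had the 2 shared regions of highest mean percentile among the 8 genes, and both lay beyond its 3′ end. The region 17.3 kb away (115453031 to 115454088) was at percentile 85.1 in control 1 and 73.5 in control 2, with 79.6 in mutant 1 and 81.0 in mutant 2. The one 59.3 kb away (115410957 to 115412141) was at 80.3 and 78.5 in controls, with 74.1 and 70.6 in mutants. Both were in the upper 30% of every list. The second was 13.2 kb from the lncRNA gene Gm45999, nearer than to Sox6. There both controls ranked above both mutants, with a mean of 79.4 against 72.4 and authors' fold enrichments of 11.3 and 10.6 against 9.08 and 8.23. Of all shared regions 5.75% did so, or 18.4% with ranks taken only among shared regions. The first did not separate the genotypes, with means of 79.3 and 80.3.

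The third Sox6 region in all libraries lay inside the gene, 15.2 kb from its 3′ end (115485453 to 115486643). It was at 49.97 and 23.5 in controls, with 57.5 and 60.1 in mutants. Both mutants thus ranked above both controls, as at 28.4% of all shared regions. Of 5 regions in 3 libraries, 3 were missing from control 2, including an intragenic one of high rank (115597143 to 115598011) at 69.4 in control 1, 59.7 in mutant 1 and 63.6 in mutant 2. A region 91.2 kb beyond the 3′ end (115379320 to 115380112) was in both mutants and in neither control, at percentiles 15.8 and 9.54, and was 12.5 kb from Gm45999. The 5′ end region (116039485 to 116040616) was listed in control 1 alone, at percentile 14.0. Another region, 8.63 kb inside the 5′ end (116031653 to 116032647), was at 7.65 in control 2, 36.3 in mutant 1 and 8.61 in mutant 2. It was not listed in control 1, and lay 356 bp from a promoter window of Sox6. Sox6 therefore had well-ranked regions at its 3′ side and lower-ranked ones near its 5′ end, none of these in all 4 libraries.

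Sox5 and Sox6 were compared with other long genes. Away from gene ends, Sox5 and Sox6 each held 11 regions, which is 1.15 and 1.93 per 100 kb of gene. The 224 other protein-coding genes of at least 500 kb had a median of 0.954 (quartiles 0.550 and 1.55). More regions per 100 kb were found at 88 of them than at Sox5 and at 30 of them than at Sox6. Of the regions inside those genes 29.6% were in all libraries, against 4 of 11 at Sox5 and 1 of 11 at Sox6.

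Sequence was at hand for the promoters of Sox5, Sox6, Acan, Matn1 and Ihh, as windows of 300 bases from 250 before to 50 after an annotated start (RefSeq, GRCm38.p6, the build mm10). The 5 genes had 10 such windows, and 2 of them overlapped a region, 1 at Sox6 and 1 at Acan. The Sox6 windows shown are the one inside a region and the one at the start nearest to the 5′ end of the gene. Letters of 3 SOX-type motifs on either strand are in capitals: the core AACAAT, the core ACAAAG that SOX and TCF factors share, and the inverted pair ACAAT and ATTGT with a spacer of 3 to 5 bases, whose ends overlap AACAAT and its reverse complement.
Sox6 internal start, chr7:115824661-115824960, minus strand: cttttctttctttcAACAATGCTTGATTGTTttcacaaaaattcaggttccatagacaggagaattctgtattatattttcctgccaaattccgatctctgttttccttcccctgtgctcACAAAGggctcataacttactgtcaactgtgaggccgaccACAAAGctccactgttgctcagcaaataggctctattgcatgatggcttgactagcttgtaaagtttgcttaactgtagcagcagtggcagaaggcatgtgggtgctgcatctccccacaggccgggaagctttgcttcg
Sox6 start near the 5′ end, chr7:116038695-116038994, minus strand: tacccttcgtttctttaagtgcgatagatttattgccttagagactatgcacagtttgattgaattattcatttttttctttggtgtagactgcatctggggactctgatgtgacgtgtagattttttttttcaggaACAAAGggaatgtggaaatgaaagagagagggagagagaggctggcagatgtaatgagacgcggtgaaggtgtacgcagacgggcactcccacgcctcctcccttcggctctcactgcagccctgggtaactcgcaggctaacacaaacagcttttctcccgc

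The internal Sox6 window fell within the region at 115824554 to 115825160, which was listed in mutant 1 alone at percentile 16.2. It held the inverted pair with a spacer of 5 bases, starting at base 16 counted from the 5′ end of the window, and 2 matches to ACAAAG. Of 21044 promoter windows of protein-coding genes, 19 (0.0903%) held the inverted pair, 8.91% held AACAAT and 16.9% held ACAAAG. The window at the 5′ end held 1 match to ACAAAG and lay 491 bp from the region called in control 1. A match of letters is not a measured binding site.

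Acan (chromosome 7, 79053226 to 79115099, plus strand) had 3 regions, and the one that stood out in rank was far upstream. It lay 62.7 kb before the gene (78989980 to 78991055) and was at percentile 76.0 in control 1 and 60.9 in control 2, with 82.2 in mutant 1 and 77.7 in mutant 2. Both mutants ranked above both controls there, as at 28.4% of all shared regions, though control 1 and mutant 2 were close. The authors' fold enrichment was 10.8 and 8.57 in controls, with 11.3 and 10.3 in mutants. The region was also 70.1 kb from Isg20, an exonuclease gene, and 27.5 kb from the lncRNA gene Gm26633, so its link to Acan rests on distance alone.

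The 5′ end of Acan was weak in the same lists. A region over it (79052599 to 79053850), which also lies in Gm26633, was at percentile 19.4 in control 1 and 12.9 in mutant 2, and was not listed in control 2 or mutant 1. A region 27.8 kb inside the gene (79080665 to 79081485) was in control 1 alone at 12.2. The promoter window inside the first region is shown because it is the 1 such window of a cartilage gene with a called peak. It held none of the SOX, homeobox (TAATTA), RUNX (TGTGGT), GLI (GACCACCC) or AP-1 (TGANTCA) letters searched on both strands, and 74.0% of its bases were G or C, against a median of 56.7% over all windows.
Acan, chr7:79052976-79053275, plus strand: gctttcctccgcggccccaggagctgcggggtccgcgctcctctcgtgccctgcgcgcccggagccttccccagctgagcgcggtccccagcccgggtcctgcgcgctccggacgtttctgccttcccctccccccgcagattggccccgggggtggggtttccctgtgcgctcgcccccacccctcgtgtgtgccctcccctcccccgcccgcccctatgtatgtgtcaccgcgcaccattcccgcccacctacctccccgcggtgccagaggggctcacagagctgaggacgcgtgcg

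Comp (chromosome 8, 70373548 to 70382066) had 1 region, inside the gene and 1.04 kb from its lower-coordinate end (70374048 to 70375120). It was at percentile 40.8 in control 1 and 24.4 in control 2, with 24.8 in mutant 1 and 50.7 in mutant 2. Each genotype had a high and a low library, and the genotypes overlapped. The region also lay inside the lncRNA gene Gm51533.

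Matn1, Ihh and Snorc had no region in any library. Matn1 (chromosome 4, 130944385 to 130955476) was 65.5 kb from the nearest region, which belonged to Laptm5 and was in all 4 libraries. Ihh (chromosome 1, 74945315 to 74951672) was 13.0 kb and Snorc (chromosome 1, 87470201 to 87475482) 22.5 kb from theirs, each in 1 library. The sequence nearest to them was 115 kb at Matn1, 19.0 kb at Ihh and 15.7 kb at Snorc. The promoters of Matn1 and Ihh are given as starts without a called peak. The Matn1 window held 1 match to the RUNX letters TGTGGT, found in 14.75% of all windows, and the Ihh window held none of the letters searched.
Matn1, chr4:130944135-130944434, plus strand: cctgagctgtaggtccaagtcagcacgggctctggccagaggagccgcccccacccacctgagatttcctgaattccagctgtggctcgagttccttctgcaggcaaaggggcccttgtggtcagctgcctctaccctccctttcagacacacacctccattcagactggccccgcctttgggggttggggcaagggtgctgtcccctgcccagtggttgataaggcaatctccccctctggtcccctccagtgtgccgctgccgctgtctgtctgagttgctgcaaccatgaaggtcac
Ihh, chr1:74951623-74951922, minus strand: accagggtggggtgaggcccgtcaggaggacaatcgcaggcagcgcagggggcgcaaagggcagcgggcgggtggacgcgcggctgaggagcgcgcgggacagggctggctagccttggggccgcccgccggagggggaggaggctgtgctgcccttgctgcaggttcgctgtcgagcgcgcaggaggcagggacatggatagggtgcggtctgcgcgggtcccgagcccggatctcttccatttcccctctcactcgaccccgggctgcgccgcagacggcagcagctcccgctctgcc

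Between genotypes, no member region was held by both controls and neither mutant (0 of 41, against 1.07% of all assigned regions). The reverse was found at 3 of 41 regions (7.32%), 1 each at Sox9, Sox5 and Sox6 as described above, against 4.01% of all. All 3 were of low rank, with percentiles from 9.54 to 19.9. These counts moved with single libraries, and so did the shares over all assigned regions. With control 1 left out, mutant-only regions numbered 10 of 36, against 12.9% of all. With control 2 left out they numbered 4 of 41, against 5.71%. Leaving out mutant 1 gave 6 of 36, against 13.3%, and leaving out mutant 2 gave 8 of 38, against 10.2%. Control-only regions numbered 5 without control 2, against 8.25% of all, and 2 without mutant 1, against 2.59%. They numbered 0 without control 1, against 2.78%, and 0 without mutant 2, against 3.67%. With the same number of peaks, 22959, taken from each library, the 8 genes had 25 regions. Of these 10 (40%) were in all libraries, against 60.5% of all, and 0 were mutant-only or control-only, against 2.11% of all for each. Peaks at skeletal muscle markers, a lineage that also uses Sox6, were 0.662 and 0.436 per 10000 in controls, with 1.37 and 2.20 in mutants. Over that whole list, 4 of 6 genes had any region, and Pax7 and Myog had none. The muscle list had only 8 regions, so its rates rest on few peaks. No other list counted in this way was higher in both mutants. Both controls were higher for the wider cartilage list described below, at 37.1 and 37.9 against 33.5 and 34.9 in mutants. The same held for palate mesenchyme, neuron and cartilage markers. For the remaining lists the genotypes overlapped. The part of muscle cells in the Sox6 values was not tested.

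The 10 regions in all libraries had a mean percentile of 56.5 and 43.0 in controls, with 55.9 and 60.9 in mutants. The difference of genotype means was 8.64 percentile points, and mutants were not above both controls (exact two-sided permutation p = 0.667 over 2 against 2 libraries, where the smallest possible p is 0.333). Control 2 was the low library. In all assigned regions in every library the median was also lowest in control 2, at 60.9 against 70.2 in control 1, 69.0 in mutant 1 and 71.6 in mutant 2. Ranked only among the regions that all libraries hold, the member means were 35.5 and 33.8 in controls, with 37.0 and 37.3 in mutants. By this ranking, chosen after seeing the data, the difference was 2.52 (exact permutation p = 0.333, the smallest possible). Without control 2, the difference over the regions then shared was 3.30.

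Region by region, both mutants ranked above both controls at 4 of the 10 (Sox5 at 228 and 382 kb, Sox6 at 15.2 kb and Acan at 62.7 kb), against 28.4% of all shared regions. Both controls ranked above both mutants at 1 (Sox6 at 59.3 kb), against 5.75%. When ranks were taken among shared regions the counts were 3, against 17.0% of all, and 1, against 18.4%. The Sox5 region at 382 kb then overlapped, at 6.85 and 15.2 in controls, with 13.0 and 9.42 in mutants. By the same ranking the Sox6 region at 59.3 kb was at 68.5 and 73.8 in controls, with 60.1 and 50.6 in mutants. No test over genotypes can pass the threshold with 2 libraries each.

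**Figure D3:**
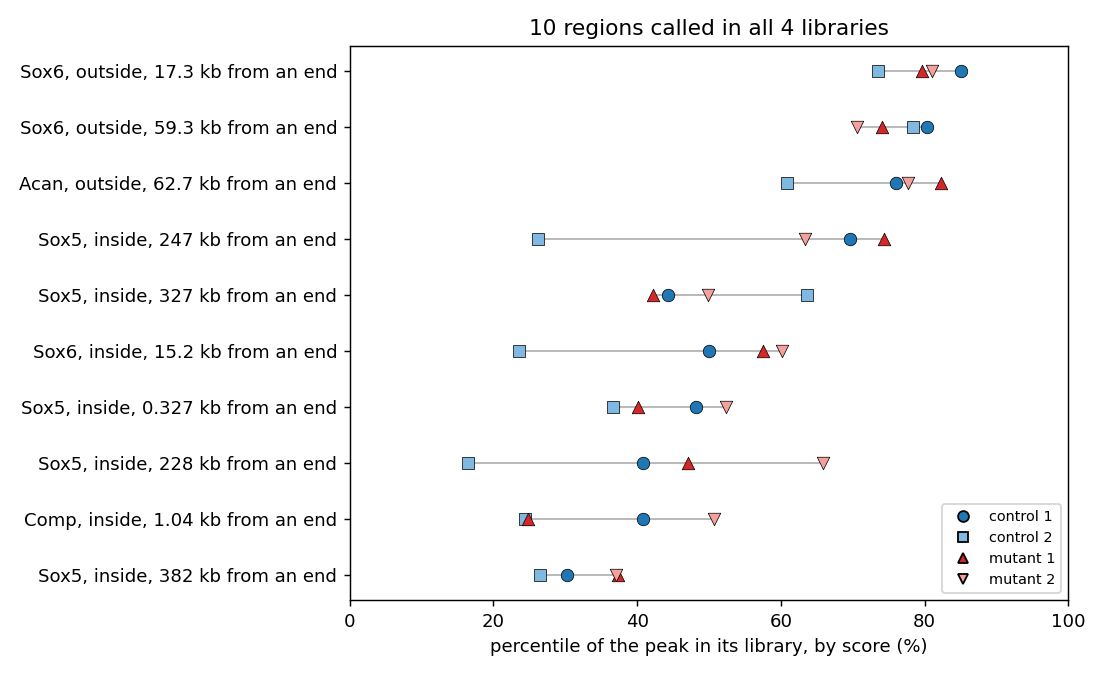
Percentile by score (%, x axis) of the 10 member regions that hold a peak in all 4 libraries, ordered by their mean. Points are single libraries, circles and squares for the 2 controls and triangles for the 2 mutants, and the grey line spans lowest to highest. The 2 Sox6 regions outside the gene stay above 70 in every library, while Sox5 regions reach down to 16.4 in control 2.

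Regulators and cartilage genes were compared by the median percentile of these shared regions, 8 from Sox5 and Sox6 and 2 from Acan and Comp. The regulator medians were 49.1 and 31.6 in controls, with 52.3 and 61.8 in mutants. The cartilage medians were 58.4 and 42.6 in controls, with 53.5 and 64.2 in mutants. Regulators minus cartilage genes was −9.35 and −11.1 in controls, with −1.20 and −2.43 in mutants. The mean difference was −6.01 ± 4.92 (SD, n = 4 libraries). It was −12.3 without control 2. With a limit of 50 kb, which leaves 7 regulator regions and Comp alone, it was 10.3, and in the upper 50% of each list, with 2 regulator regions and 1 cartilage region, it was 3.62. Ranked by the authors' fold enrichment it was −1.47 ± 9.89 (SD, n = 4 libraries), with 0.49 in mutant 1 and 10.5 in mutant 2. The sign thus depended on the regions that entered and, in the mutants, on the column used for ranking.

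The lowest percentile of a shared region over the 4 libraries had a median of 31.6 in the members and 58.6 over all assigned shared regions. Away from gene ends the median was 26.5 in the members and 42.0 over all assigned shared regions. The farthest member regions were 91.2 kb from Sox6 and 518 kb from Sox9. The closest regions left out for distance were 130 kb from Sox6, 165 kb from Sox5 and 205 kb from Matn1. With limits of 50 and 500 kb the 8 genes had 37 regions, and the Sox6 region at 91.2 kb was no longer among the mutant-only regions, which numbered 2.

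A wider list of 46 cartilage genes was described in the same way. It had 141 regions, of which 65 (46.1%) were in all libraries, closer to the 50.4% of all assigned regions than the 24.4% of the 8 genes. A gene-end region in all libraries was found at 18 of 46 genes (39.1%), against 44.8% of all genes. Col2a1, the main cartilage collagen, had 3 regions with 1 in all libraries, and Col9a1 had 6 with 2 in all libraries. Neither had a gene-end region held by all libraries. No region was assigned to 6 genes, namely the collagens Col11a2 and Col10a1, the lubricant gene Prg4, Chad, Mia and the growth factor gene Gdf5.

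The gene-end regions of this list spanned a wide range of ranks. The highest were at Col11a1, a fibrillar collagen gene, at 96.1 and 94.4 in controls, with 96.7 and 96.7 in mutants, at Zfp219, which encodes a partner of Sox9, and at the matrilin gene Matn2. Zfp219 was at 93.1 and 93.1 in controls, with 92.1 and 91.6 in mutants, and Matn2 at 84.1 and 83.3 against 84.5 and 79.4. The lowest were at Barx2, a homeobox gene, at 44.5 and 8.0 in controls, with 29.1 and 32.5 in mutants, and at Pthlh, a growth plate signal, with 21.3 and 37.5 against 14.0 and 45.1. Dcn, the decorin gene, was at 38.4 and 16.0 against 50.1 and 34.9. Of these 6 genes, the high-ranked ends differed by less than 6 points across libraries, and the low-ranked ends by over 30.

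In the wider list 2 of 141 regions (1.42%) were control-only and 5 (3.55%) mutant-only, against 1.07% and 4.01% of all assigned regions. The control-only pair lay inside Arid5b, which encodes a Sox9 cofactor (chromosome 10, 68144957 to 68146009), and inside Mef2c, a factor of chondrocyte hypertrophy (chromosome 13, 83531900 to 83532450). Mutant-only regions lay inside Xylt1, which starts proteoglycan sugar chains, with 2 (chromosome 7, 117493959 to 117494651 and 117549731 to 117550530), and inside Runx2, the osteoblast regulator. The others were 56.5 kb from Dcn (chromosome 10, 97422491 to 97423580) and 31.8 kb from Pitx1, a limb and jaw homeobox gene (chromosome 13, 55867394 to 55868643). Their percentiles ran from 9.72 to 24.9 in the control-only and from 10.2 to 50.7 in the mutant-only regions.

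Among 6 relatives of the regulators, Sox4, Sox11 and Sox12, the SoxC genes of undifferentiated mesenchyme, had gene-end regions in all libraries. Sox4 was at 81.3 and 71.0 in controls, with 77.7 and 69.2 in mutants. Sox11 was at 72.5 and 64.0 against 73.7 and 79.8, and Sox12 at 79.0 and 67.6 against 78.2 and 83.2. Each was above the gene-end region of Sox5 in 4 of 4 libraries. Sox8 and Sox10, the closest relatives of Sox9, had 1 region each and Sox13, the relative of Sox5 and Sox6, had 3. Of these, 0, 0 and 1 were in all libraries. None of these genes had a gene-end region in all libraries, while 5 of the 6 relatives had one in some library. The 1 genotype-specific region of these relatives was mutant-only, 53.1 kb from Sox4 (chromosome 13, 29006555 to 29007079).

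**Figure D4:**
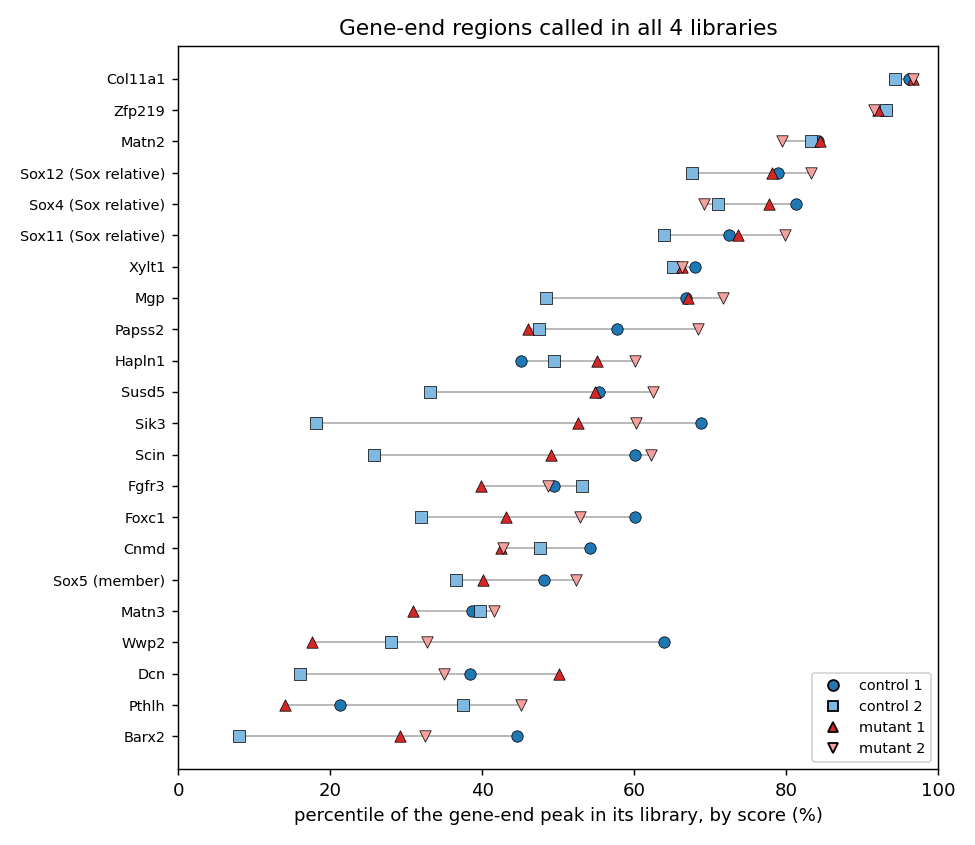
Percentile by score (%, x axis) of the gene-end region held by all 4 libraries, for 18 genes of the wider cartilage list, 3 Sox relatives and Sox5, ordered by mean. Points are single libraries as marked, and the grey line spans lowest to highest. Col11a1 and Zfp219 stay above 91 in every library, and Sox5 lies between 36.6 and 52.3.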

How the data were processed

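ATAC-seq libraries of sorted palate mesenchyme, 2 control and 2 mutant, were grouped by the genotype names in the labels. The authors deposited 1 peak list per library in 10 columns, with coordinates of mm10 according to the submitters' processing notes. The aligner, transposase offset, peak caller and filters were not given in the sources used here. Each deposited score is 10 times the deposited −log10 p-value, cut to a whole number, in all but 5 rows. The fold enrichment, a ratio, and the −log10 q-value were also deposited by the authors per peak, and were identified by their place in the narrowPeak layout. They were used to rank or describe peaks within a library. Depth is unknown, and peaks are not listed with counts, so no counting error is given.

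Chromosomes 1 to 19 and X were used. Peaks were merged with pandas 2.3.3 in Python 3.11.15, ranked by score with ties averaged, and assigned by midpoint to 21627 protein-coding gene symbols of GRCm38.p6, which is mm10. All 8 members matched. Regions tied between overlapping genes (739 extra assignments) were counted for each gene. Control-only means in both controls and no mutant, mutant-only the reverse. Merging, classes and assignment were tested on simulated peaks. Genotypes were compared by an exact permutation test over libraries. Members, lists and named genes were chosen with earlier results of these data known. From the wider list the text names genes with a genotype-specific region, with no region, or with the 3 highest or lowest gene-end means; further genes (Col2a1, Col9a1 and the Sox relatives) were named after their values were seen. Libraries with equal replicate numbers did not deviate together (correlation −0.03 over 18904 regions). With 2 libraries per genotype the value is the same for both replicate numbers by construction, so this is 1 check.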

Additional observations from a re-analysis of the deposited data

How the results depend on the processing

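The depth behind each call is unknown. Merging only peaks that overlap by 50% of the shorter one changed none of the values tested. In the upper 50% of each list the 8 genes had 14 regions, 1 mutant-only region and 2 regions at Sox9, and regulators minus cartilage genes was 3.62 percentile points. With equal peak numbers there were 25 regions, 0 mutant-only and 5 at Sox9. The regulator difference was 10.3 with limits of 50 and 500 kb and also with all genes of the table, where Sox9 had 2 regions, and −11.1 with ranks among shared regions, an alternative chosen after seeing the data. Ranked by fold enrichment it was −1.47. Fewer peaks, shorter distances or more genes enter by construction in all of these but the rankings, for which the cause was not tested.

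Leaving out 1 library at a time gave 4 to 10 mutant-only regions (5.71% to 13.3% of all assigned regions), 0 to 5 control-only regions (2.59% to 8.25% of all), 27.8% to 41.5% of member regions in all libraries left (55.5% to 59.2% of all), and a regulator difference of −12.3 to −7.62. Fewer libraries then have to agree. With a replicate block, pairing libraries of the same number, the mutant minus control difference was again 8.64 (exact sign-flip p = 1, pairs −0.589 and 17.9). It was positive under every alternative run, from 1.83 in the upper 50% of each list to 15.3 without control 1. All alternatives reuse the same libraries, so their shared sign is not independent evidence. With so few libraries no exact p can fall under 0.333.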
